A study of Mus musculus with 10 samples.

Results

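Sonic hedgehog receptors and effectors are described here through 9 genes, Cdon, Boc, Gas1, Ptch1, Smo, Hhip, Gli1, Gli2 and Gli3, out of 28059 genes listed in the files. The genes were picked by name from a list of pathway parts, through their Entrez identifiers. Earlier results of these data were known when they were picked. All 9 were found, and all 9 had enough counts to be tested. Polyadenylated RNA was sequenced from mouse brains at embryonic stage E18.5 with the olfactory bulbs removed, in 10 libraries over 5 genotypes, 2 libraries each. QKO brains lacked COP1, cJun, ETV1 and ETV5. TKO brains lacked COP1, cJun and ETV1, DKO brains lacked COP1 and cJun, and KO brains lacked COP1. The controls were heterozygous for COP1, so that every group carried a COP1 mutation and no wild-type brain was compared. The sources used here give no driver of a conditional deletion, no litter and no sex. COP1 is part of a ubiquitin ligase that marks cJun and the ETV factors for degradation, and the further deletions ask which effects of COP1 loss depend on those substrates.

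Hedgehog ligands bind the membrane protein PTCH1, which holds the transducer SMO inactive when no ligand is present. Active SMO works in the primary cilium and shifts the GLI transcription factors from repressing to activating forms. PTCH1, HHIP and GLI1 are themselves targets of the pathway and are often read as gauges of its activity. In the late embryonic brain the pathway is known for driving the expansion of cerebellar granule cell precursors and for maintaining neural stem and progenitor cells.

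Totals ran from 31996944 to 54594523 counts per library, and a count of 0 allowed up to 3 counts, or 0.055 to 0.0938 CPM (counts relative to the library total), for counting error only. The members had between 163 and 3283 counts in a library. Neuronal markers summed to between 7014 and 7509 CPM, and of all cell type markers searched for only Hoxa5 and Hoxb8 were at 0 in some library, so the tissue label was borne by its markers. Jun was at 2.05 and 1.44 nRPKM in QKO, 1.60 and 1.48 in TKO, 2.94 and 1.61 in DKO, 16.1 and 15.3 in KO and 15.0 in either control, where nRPKM is the deposited length- and size-adjusted level. Counts over the whole genes do not check the other deletions: Cop1 was between 3.57 and 4.39 nRPKM in the 8 knockout libraries and 4.9995 and 4.74 in the controls, and Etv1 was at 3.80 and 3.67 nRPKM in TKO and 1.98 and 2.11 in DKO. Etv5 was at 3.97 and 4.11 nRPKM in QKO, against 3.75 and 3.93 in TKO. Control 1 and DKO 1 had high Xist and no Uty count, a female pattern, and the other 8 libraries had the reverse. The labels do not state that replicates are separate litters, so p-values measure only the spread among these libraries, which can be technical.

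Of the 9 genes, Cdon alone passed the test in any comparison. Cdon is a cell-surface protein of the immunoglobulin and fibronectin family that binds Sonic hedgehog as a co-receptor beside PTCH1. It was higher in KO than in control brains and lower in DKO and in QKO than in KO brains. In TKO brains it was also below KO in either library, without passing the test. The other 8 genes passed no test in any of the 11 comparisons.

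Cdon (gene 57810) stood at 5.43 and 5.65 nRPKM in QKO, 6.39 and 5.31 in TKO, 5.35 and 5.84 in DKO, 7.63 and 8.21 in KO and 5.50 and 5.41 in control. Both KO libraries lay above all 8 others, and the ranges of the other 4 genotypes overlapped. The mean level was 7.92 ± 0.41 nRPKM in KO and 5.46 ± 0.06 in control (SD, n = 2 each). The log2 fold change of KO over control was 0.55 ± 0.09 (SE), or 1.46-fold, with a 95% interval of 0.36 to 0.74 and an adjusted p of 0.0165 (edgeR quasi-likelihood test, Benjamini-Hochberg over 18671 genes). Without KO 1, KO 2, control 1 or control 2, or without both libraries with high Xist, the estimate stayed between 0.49 and 0.59, with adjusted p between 0.0807 and 0.181, and Cdon was no longer called. limma on log2 nRPKM and a fit with Xist as a covariate did not call it either, with adjusted p of 0.0771 and 0.0665.

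With cJun also deleted, Cdon was lower than with COP1 deleted alone. DKO over KO gave a log2 fold change of -0.51 ± 0.09 (adjusted p = 0.0248), and QKO over KO gave -0.52 ± 0.09 (adjusted p = 0.0135). TKO over KO gave -0.44 ± 0.09, with an interval of -0.63 to -0.25 and an adjusted p of 0.0767. DESeq2 called this difference, with an adjusted p of 0.00509. The mean of DKO, TKO and QKO was 1.41-fold lower than KO (log2 -0.49 ± 0.07, adjusted p = 0.0058). These comparisons share the KO libraries with each other and with KO over control, so they are not separate tests of the KO level. The called comparisons against KO all lost the call without KO 1 and without KO 2, with adjusted p between 0.0589 and 0.164 for the mean of DKO, TKO and QKO. DKO over KO also lost it without DKO 1, control 1 or control 2, and QKO over KO without QKO 1 or QKO 2. With the mean HOX level as a covariate, QKO over KO (adjusted p = 0.0681) and the mean over KO (adjusted p = 0.0523) were not called.

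Against control, Cdon in the genotypes without cJun gave small differences. The log2 fold change was 0.02 in QKO (interval -0.17 to 0.21), 0.11 in TKO (-0.08 to 0.30) and 0.04 in DKO (-0.15 to 0.23). The steps that added an ETV deletion gave -0.09 for QKO over TKO (-0.28 to 0.11) and 0.07 for TKO over DKO (-0.12 to 0.26). The intervals leave room for differences of up to 0.30 on the log2 scale, against 0.55 for KO over control.

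**Figure D1:**
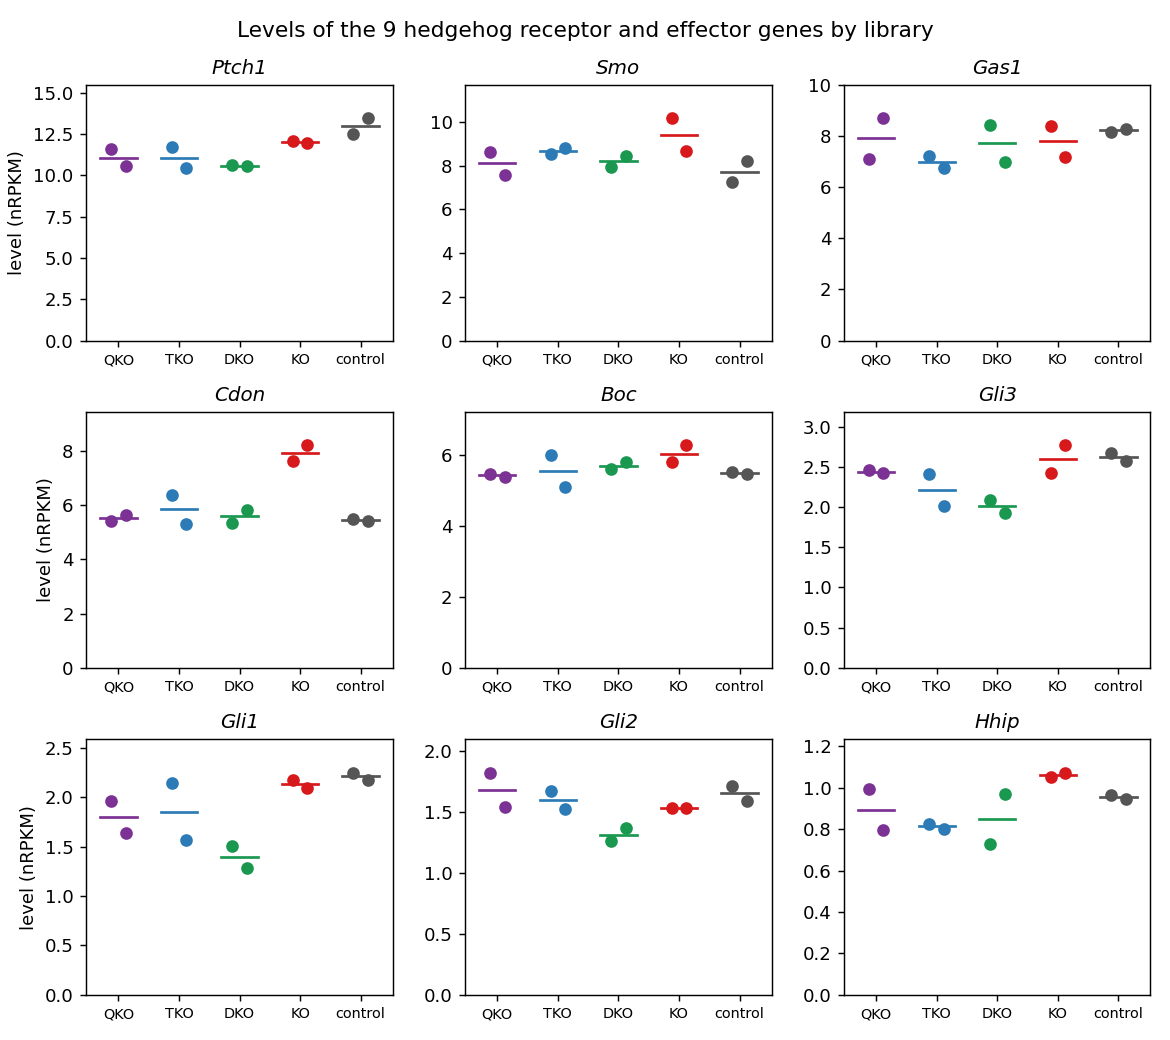
Level of each of the 9 genes in nRPKM (vertical axes, from 0) by genotype. Each point is 1 library and each bar is the mean of 2. The Cdon points of KO, at 7.63 and 8.21, lie above all others, and the Gli1 points of DKO, at 1.503 and 1.28, lie below all others.

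Because Cdon carries the called differences, the bases before its RefSeq start are printed, from assembly GRCm38.p6, chr9:35451826-35452075, plus strand. The window lies inside the extent of the gene, before a downstream annotated start, and gene counts do not separate the starts. The window of Hhip, chr8:80058009-80058258 on the minus strand, is printed for the motif that it holds, in capitals.
Cdon: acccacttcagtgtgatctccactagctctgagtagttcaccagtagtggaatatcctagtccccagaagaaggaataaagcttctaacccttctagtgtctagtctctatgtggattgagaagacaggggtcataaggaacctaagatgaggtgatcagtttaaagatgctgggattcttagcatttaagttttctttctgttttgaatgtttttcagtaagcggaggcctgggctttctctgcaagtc
Hhip: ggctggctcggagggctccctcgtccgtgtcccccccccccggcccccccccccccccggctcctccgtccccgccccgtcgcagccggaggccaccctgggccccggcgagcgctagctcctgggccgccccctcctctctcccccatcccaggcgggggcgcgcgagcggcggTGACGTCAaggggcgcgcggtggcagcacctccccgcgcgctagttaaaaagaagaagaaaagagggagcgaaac
RefSeq windows were at hand for 7 of the 9 genes, all but Boc and Gli1. They were searched on both strands for AP-1 (TGANTCA), CRE-like (TGACGTCA), ETS (CCGGAAGT) and GLI (GACCACCCA) letters, the first 3 because dimers with cJun and the ETV factors bind such sequences. The CRE-like string, a palindrome starting 75 bases before the start of Hhip, was the only match in the 7 windows, so no motifs overlapped. Over 32851 promoter windows of the same length, 6.75% held the AP-1 letters, 1.55% the CRE-like, 2.88% the ETS and 0.225% the GLI letters. The Cdon window was 42.8% G and C, against 58.8 to 78.4% in the other 6.

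The other co-receptors passed no test. Boc, the nearest relative of Cdon and likewise a binder of Sonic hedgehog, was at 5.47 and 5.38 nRPKM in QKO, 6.01 and 5.11 in TKO, 5.61 and 5.80 in DKO, 5.82 and 6.27 in KO and 5.53 and 5.46 in control. The KO libraries were above the controls, but TKO 1 lay between the KO libraries, and KO over control was 0.15 ± 0.09 on the log2 scale (interval -0.04 to 0.34). Gas1, a lipid-anchored co-receptor, was at 7.12 and 8.70 nRPKM in QKO, 7.22 and 6.77 in TKO, 8.44 and 7.001 in DKO, 8.42 and 7.17 in KO and 8.17 and 8.28 in control. Libraries of the same genotype differed by up to 1.22-fold for Gas1, which was more than the genotype means of KO and control did (log2 -0.07 ± 0.12).

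Ptch1, the ligand receptor, was at 11.6 and 10.5 nRPKM in QKO, 11.7 and 10.4 in TKO, 10.6 and 10.5 in DKO, 12.1 and 11.96 in KO and 12.5 and 13.5 in control. Both controls lay above all 8 knockout libraries. The log2 fold changes against control were -0.23 ± 0.07 in QKO, -0.22 ± 0.07 in TKO, -0.29 ± 0.07 in DKO and -0.10 ± 0.07 in KO. None passed, with edgeR adjusted p of 0.513, 0.359, 0.216 and 0.676.

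Smo, the transducer that PTCH1 restrains, was at 8.64 and 7.59 nRPKM in QKO, 8.52 and 8.81 in TKO, 7.96 and 8.43 in DKO, 10.2 and 8.67 in KO and 7.25 and 8.21 in control. KO 1 was the highest library, while KO 2 lay among those of TKO. KO over control was 0.30 ± 0.10 on the log2 scale (interval 0.08 to 0.51), with an edgeR p of 0.0111 before adjustment and 0.29 after it. Hhip, a membrane protein that binds ligands and keeps them from PTCH1, was at 0.992 and 0.797 nRPKM in QKO, 0.826 and 0.800 in TKO, 0.729 and 0.968 in DKO, 1.05 and 1.07 in KO and 0.963 and 0.947 in control. Both KO libraries were above all others. Hhip differed by -0.34 ± 0.14 on the log2 scale in DKO over KO and by -0.39 ± 0.14 in TKO over KO, with adjusted p of 0.324 and 0.462.

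The mean levels of all 3 GLI factors were lowest in DKO. Gli1, an activator and a direct target of the pathway, was at 1.96 and 1.64 nRPKM in QKO, 2.14 and 1.57 in TKO, 1.503 and 1.28 in DKO, 2.17 and 2.10 in KO and 2.25 and 2.18 in control. The DKO libraries lay below all others. DKO over KO was -0.62 ± 0.15 on the log2 scale (1.53-fold lower, interval -0.96 to -0.28, adjusted p = 0.151), and DKO over control was -0.66 ± 0.16 (interval -0.998 to -0.316, adjusted p = 0.164). These exceeded in size every difference of Cdon, with fewer counts (163 to 474 per library) and a wider spread. Only the fit with no filter on low counts called them, with adjusted p of 0.0306 and 0.0209.

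Gli2, the main activator downstream of SMO, was at 1.82 and 1.54 nRPKM in QKO, 1.68 and 1.52 in TKO, 1.26 and 1.37 in DKO, 1.53 in either KO library and 1.71 and 1.59 in control. The DKO libraries were again below all others, with DKO over control at -0.33 ± 0.11 (adjusted p = 0.365). Gli3, the main repressor, was at 2.46 and 2.42 nRPKM in QKO, 2.42 and 2.02 in TKO, 2.09 and 1.93 in DKO, 2.43 and 2.77 in KO and 2.67 and 2.58 in control. DKO overlapped TKO for Gli3, and its difference was -0.37 ± 0.10 against KO (adjusted p = 0.184) and -0.38 ± 0.10 against control (adjusted p = 0.255). Erythroid markers, 5 genes without Hbb-bt, also stood apart in DKO, with sums of 283 and 345 CPM, against 95.7 to 191 CPM in the other 8 libraries. Cycling cell markers, 7 genes, were lowest in DKO, with sums of 227.2 and 239.6 CPM, against 247.5 to 293.4 CPM in the other 8 libraries. All 7 were below 0 in DKO over control and in DKO over KO, with 0 called by edgeR. DESeq2 called 1 of the 7 in DKO over KO, beside 228 of 17658 genes. At edgeR p under 0.05 before adjustment there were 1 in DKO over control (8.14% of all genes) and 2 in DKO over KO (13.8%). The part of either marker group in the DKO values was not tested.

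Called members were read against the share of all 18671 genes that each comparison called. In KO over control 1 of 9 members was called, and it was higher, while 0.734% of all genes were called. DKO over KO called 1 of 9, lower, beside 0.568% of all genes, and QKO over KO called 1 of 9, lower, beside 1.29%. The mean of DKO, TKO and QKO over KO called 1 of 9, lower, beside 0.98% of all genes. The test for any difference among the 5 genotypes called 1 of 9 beside 1.25%. Each time the called gene was Cdon (adjusted p = 0.023 for any difference). In the test for any difference, 5 of 9 members had p under 0.05 before adjustment, against 12.8% of all genes. They were Cdon, Gli1, Gli2, Gli3 and Ptch1. At p under 0.05 before adjustment there were 2 members in KO over control, Cdon and Smo, both higher, against 10.4% of all genes, and 2 in QKO over KO, Cdon and Smo, both lower, against 11.5%.

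No member was called by edgeR in the other 6 comparisons. These called 0.236% of all genes in QKO over control, 0.15% in TKO over control, 0.423% in DKO over control, 0.332% in TKO over KO, 0.289% in QKO over TKO and 0.0911% in TKO over DKO. Before adjustment, the members with p under 0.05 were 1 in QKO over control (6.89% of all genes), 2 in TKO over control (10.3%) and 4 in DKO over control (8.14%), all lower. They were 3 in TKO over KO (7.82% of all genes), all lower, 0 in QKO over TKO (5.78%) and 2 in TKO over DKO (11.9%), both higher. DESeq2 called 1 member in TKO over KO and 0 in the other 5.

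Member medians were below 0 in all comparisons of QKO, TKO and DKO with KO and with control. All 9 log2 fold changes were below 0 in DKO over KO, with a median of -0.23, and 5 of 9 had p under 0.05 before adjustment, against 13.8% of all genes. All 9 were below 0 for the mean of DKO, TKO and QKO over KO as well, with a median of -0.19, and 6 of 9 had p under 0.05, against 11.8% of all genes. The median over all genes was -0.0018 in DKO over KO and -0.0064 for that mean. QKO over KO had 7 of 9 below 0 and TKO over KO 8 of 9, each with a median of -0.16. Against control, 6 of 9 were below 0 in each of QKO, TKO and DKO, with medians of -0.05, -0.22 and -0.18. These comparisons share libraries. In KO over control the member median was -0.01 and the range -0.10 to 0.55.

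**Figure D2:**
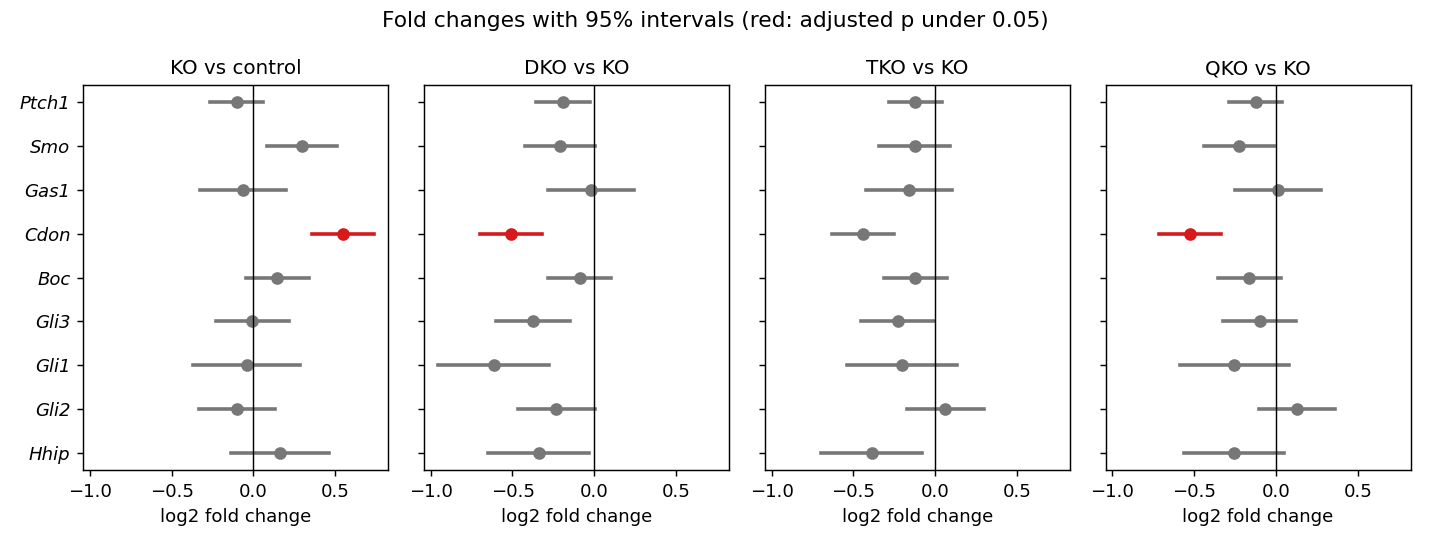
Log2 fold changes of the 9 genes (horizontal axes) with 95% intervals in 4 comparisons. Red marks an adjusted p under 0.05, which only Cdon reached, at 0.55 in KO over control, -0.51 in DKO over KO and -0.52 in QKO over KO. Gli1 in DKO over KO, at -0.62, has the widest interval of that panel.

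Levels per length ranged widely among the members. Ptch1 had the highest mean over all 10 libraries, 11.5 nRPKM, followed by Smo at 8.43, Gas1 at 7.73, Cdon at 6.07, Boc at 5.65, Gli3 at 2.38, Gli1 at 1.88, Gli2 at 1.55 and Hhip at 0.915. Between neighbours, the ranges over libraries separated only Ptch1 from Smo, Boc from Gli3 and Gli2 from Hhip. Smo exceeded Gas1 in 6 of 10 libraries and Cdon exceeded Boc in 6 of 10, counted over all genotypes together. Cdon was above Boc in both KO and both TKO libraries, and the order split within QKO and within DKO. In the controls Cdon was slightly below Boc, at 5.504 against 5.531 and 5.412 against 5.463 nRPKM. The 5 receptor and transducer genes were above the 3 GLI genes in every library.

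Steadiness differed among the members. Boc had an SD of 0.09 in log2 CPM over the 10 libraries and was the only member under the median SD of all tested genes, 0.12. Cdon had an SD of 0.23, larger than that of 75.1% of genes. Gli1 varied most, with an SD of 0.28, larger than that of 81.6% of genes, and its TKO libraries alone differed by 1.36-fold.

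The genes whose profile lay closest to that of Cdon were Spata13, Sox6 and Ccnjl. Likeness was the root-mean-square difference of centred log2 CPM over 10 libraries, 0.0725 for Spata13, 0.0735 for Sox6 and 0.0741 for Ccnjl, against a median of 0.25 over all genes. Sox6, a transcription factor, was at 7.08 and 6.85 nRPKM in QKO, 7.77 and 7.12 in TKO, 6.68 and 6.60 in DKO, 9.46 and 9.36 in KO and 6.83 and 6.93 in control. Spata13, an exchange factor for small GTPases, was at 6.68 and 6.85 nRPKM in KO and between 4.73 and 5.44 elsewhere. Ccnjl, a cyclin J-like gene, was at 3.45 and 3.77 nRPKM in KO and between 2.64 and 2.83 elsewhere. They were picked for this pattern, so no test of it is given.

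**Figure D3:**
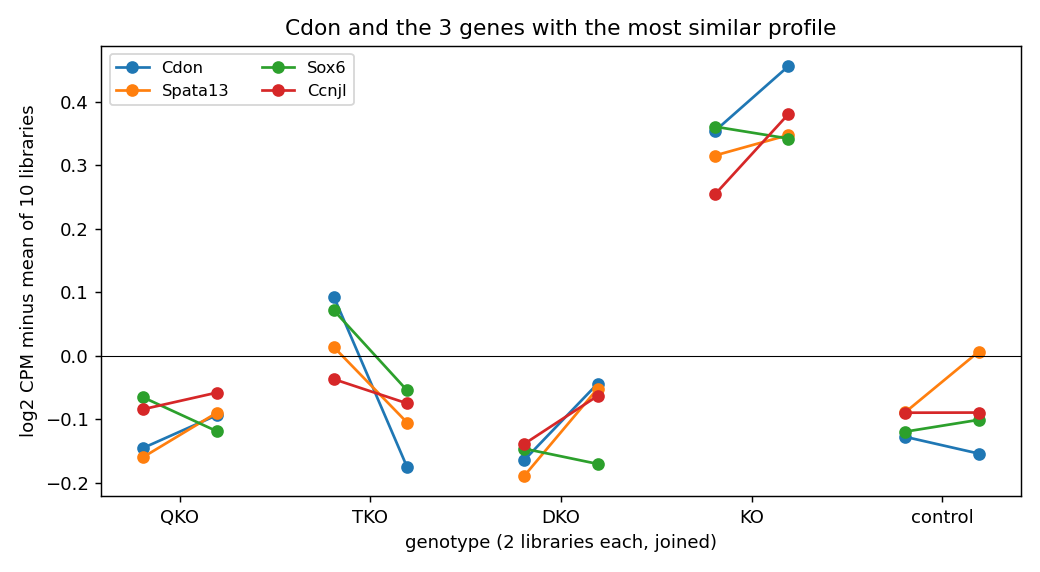
Log2 CPM minus its mean over 10 libraries (vertical axis) for Cdon and the 3 genes nearest to it, by genotype. Points are libraries, and lines join the 2 libraries of a genotype without implying an order. All 4 genes are highest in both KO libraries.

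Glial marker sums shared the KO peak of Cdon but not its whole pattern. Radial glia markers, 13 genes, summed to 2396 CPM in either QKO library, 2577 to 2758 in TKO, 2466 to 2665 in DKO, 3163 to 3318 in KO and 2611 to 2678 in control. Oligodendrocyte precursor markers, 6 genes, summed to 264 to 294 CPM in QKO, 398 to 425 in TKO, 423 to 444 in DKO, 547 to 620 in KO and 294 to 328 in control. Astrocyte markers, 7 genes, summed to 537 to 623 CPM in QKO, 686 to 695 in TKO, 615 to 684 in DKO, 789 to 827 in KO and 632 to 663 in control. All 3 sums were highest in both KO libraries, as Cdon was. The precursor sums of TKO and DKO lay above control, and the radial glia and astrocyte sums of QKO lay below it. In bulk tissue fewer cells of a type and less RNA per cell cannot be told apart.

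Gene by gene, KO over control called 4 of 13 radial glia markers higher (Egfr, Nes, Slc1a3 and Vim), beside 0.734% of all genes. It also called all 6 oligodendrocyte precursor markers and 3 of 7 astrocyte markers (Aldh1l1, Fgfr3 and Gfap), all higher. Not all markers leaned that way: among those not called, S100b was at -0.40 and Gja1 at -0.25 of the astrocyte list, and Fabp7 at -0.30 and Pax6 at -0.19 of the radial glia list, on the log2 scale. The mean of DKO, TKO and QKO over KO called 0.98% of all genes. It called 6 of 13 radial glia markers, all 6 of the precursors and 3 of 7 of the astrocytes, all lower. Of 5 erythroid markers, it called 2 higher. Vim, an intermediate filament of radial glia, differed by 0.66 ± 0.07 on the log2 scale in KO over control and by -0.84 ± 0.06 in that mean. The part of these cell types in the Cdon values was not tested.

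Caudal hindbrain markers, 12 HOX genes, were lower in KO than in control, opposite to Cdon. They summed to 34.7 and 5.64 CPM in QKO, 21.2 and 15.9 in TKO, 4.70 and 9.73 in DKO, 4.54 and 1.93 in KO and 34.3 and 45.4 in control. Of 11 tested, 6 were called lower in KO over control, beside 0.734% of all genes. Of 5 cerebellar granule precursor markers, 4 were below 0 in KO over control. Before adjustment 3 had p under 0.05, against 10.4% of all genes, and 1, Atoh1, was called (log2 -1.29 ± 0.21, adjusted p = 0.0227). The QKO libraries differed in the mean HOX level by 2.85 on the log2 scale, with Cdon at 42.7 and 44.2 CPM. The DKO libraries had mean HOX levels of -1.59 and -0.82, with Cdon at 42.1 and 45.8 CPM. KO had -1.50 and -2.60, with Cdon at 60.3 and 64.7 CPM, and control had 1.32 and 1.74, with Cdon at 43.2 and 42.4 CPM. With the HOX mean as a covariate, Cdon in KO over control was 0.52 ± 0.17 (adjusted p = 0.152) and DKO over KO kept its call (adjusted p = 0.0268). QKO over KO and the mean over KO lost theirs in that fit. The HOX levels of KO and control did not overlap. The standard error for Cdon in KO over control was 0.17 with the covariate and 0.09 without it. The part of hindbrain tissue in the Cdon values was not tested. Markers of neurons, microglia, endothelium and meninges had 0 calls by edgeR in KO over control and in the mean over KO. The same held for choroid plexus and ependyma, ventral midline and cycling cells. In these lists 0 to 4 members had p under 0.05 before adjustment. The 4 were of 8 meninges markers in the mean over KO, 2 higher and 2 lower, against 11.8% of all genes.

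**Figure D4:**
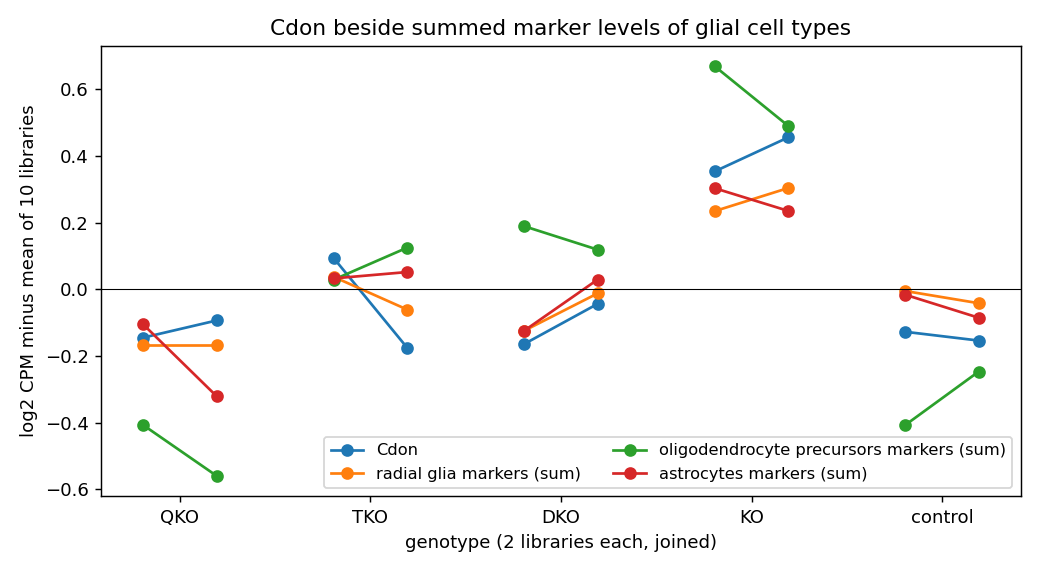
Log2 CPM minus its mean over 10 libraries (vertical axis) for Cdon and for the summed markers of radial glia, oligodendrocyte precursors and astrocytes, by genotype. Points are libraries, and lines join the 2 libraries of a genotype. All 4 quantities are highest in KO, and the precursor sum is also above its mean in TKO and DKO.

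Other parts of the pathway were measured through lists written down for this purpose. Of the ligand and release genes, 10 of 11 were in the files and 0 passed in any of the 11 comparisons by edgeR, DESeq2 or limma. Before adjustment 0 to 4 had p under 0.05 in a comparison. The 4 were in DKO over control, 1 higher and 3 lower, against 8.14% of all genes. Shh, the ligand named with these receptors, was between 0.861 and 1.21 nRPKM in all libraries, and KO over control was -0.15 ± 0.16 on the log2 scale. Ihh had 3 to 14 counts per library. Dhh, with 7 to 82 counts, averaged 0.429 ± 0.025 nRPKM in KO and 0.166 ± 0.031 in control (SD, n = 2 each), a log2 difference of 1.38 ± 0.47 (adjusted p = 0.307).

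Intracellular components gave 0 calls of 20 genes in each of the 11 comparisons with all 3 tools. Before adjustment 0 to 4 had p under 0.05. The 4 were in DKO over KO, 1 higher and 3 lower, against 13.8% of all genes. Sufu, which holds the GLI proteins in check, was between 7.44 and 9.08 nRPKM. Kif7, a ciliary motor protein that regulates the GLI factors, averaged 2.63 ± 0.11 nRPKM in KO and 2.15 ± 0.30 in control (log2 0.30 ± 0.11, adjusted p = 0.325). The 16 primary cilium genes likewise had 0 calls in every comparison with the 3 tools, and 0 to 2 at p under 0.05. There were 2 in DKO over KO, against 13.8% of all genes, and 2 in TKO over DKO, against 11.9%.

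Of 16 pathway targets outside the 9 members, 3 were called in at least 1 of the 11 comparisons. No share over all genes was computed for this pooled count. Single comparisons called 0 to 2 of the 16. KO over control called 1, beside 0.734% of all genes, and DKO over control called 2, beside 0.423%. The mean of DKO, TKO and QKO over KO called 2, beside 0.98%. Olig2, a transcription factor of ventral progenitors and of the oligodendrocyte lineage, is also on the list of precursor markers. It was at 11.6 and 10.998 nRPKM in QKO, 18.4 and 19.5 in TKO, 22.9 and 19.7 in DKO, 28.04 and 25.1 in KO and 11.9 and 13.0 in control. Olig2 was higher in KO over control (log2 1.11 ± 0.09, adjusted p = 0.000224), in DKO over control (0.78 ± 0.09, adjusted p = 0.00249) and in TKO over control (0.61 ± 0.09, adjusted p = 0.0208). It was lower in TKO over KO (-0.49 ± 0.09, adjusted p = 0.0482), in QKO over KO (-1.25 ± 0.09, adjusted p = 8.3e-05) and in QKO over TKO (-0.76 ± 0.09, adjusted p = 0.00346). Olig2 therefore differed from control in DKO and TKO, where Cdon did not pass, but no test compared the genes with each other.

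Ccnd1, a cyclin of the G1 phase, shared its highest libraries with Cdon. It was at 13.8 and 13.6 nRPKM in QKO, 13.2 and 13.8 in TKO, 14.0 and 11.7 in DKO, 17.1 and 18.4 in KO and 14.0 and 13.2 in control. Ccnd1 was lower in DKO over KO (log2 -0.47 ± 0.08, adjusted p = 0.0325), and in the mean of DKO, TKO and QKO over KO (-0.42 ± 0.07, adjusted p = 0.0122), while KO over control was 0.40 ± 0.08 (adjusted p = 0.0654). Hes1, a repressor also driven by Notch signalling, was highest in DKO, with 7.32 and 6.33 nRPKM against 4.05 and 4.48 in control (log2 0.68 ± 0.11, adjusted p = 0.0209). The median over the 16 targets was 0.03 in KO over control, beside 0.01 over all genes.

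**Figure D5:**
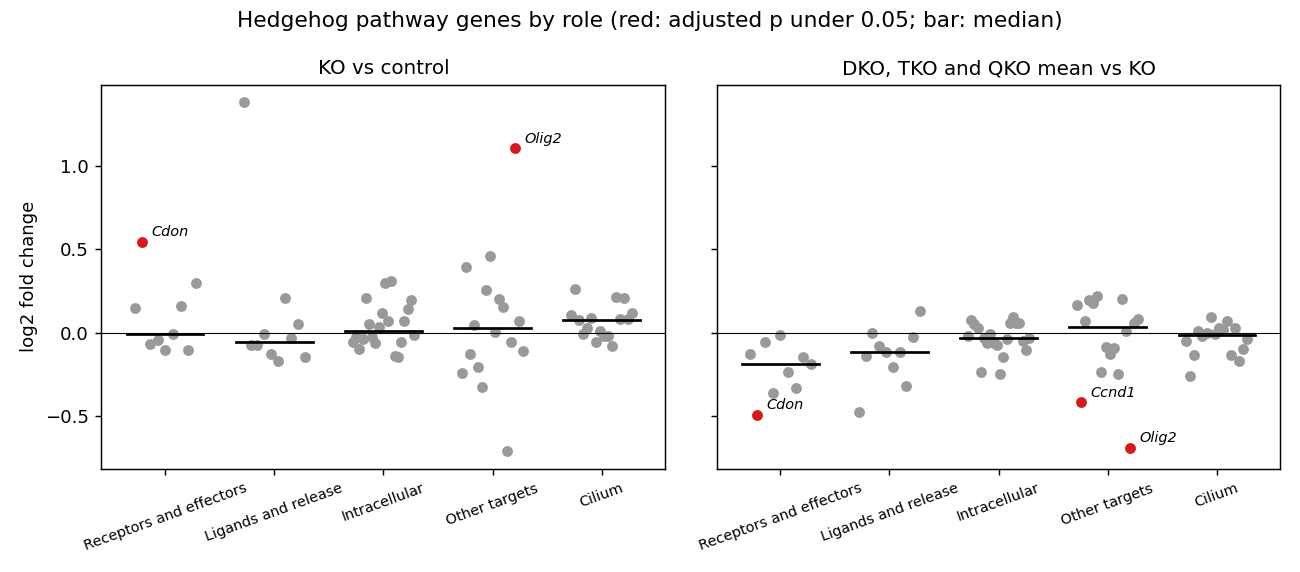
Log2 fold changes (vertical axis) of the 9 members and of the 4 other pathway lists, in KO over control and in the mean of DKO, TKO and QKO over KO. Each point is a gene, each bar a median, and red marks an adjusted p under 0.05. The highest grey point, at 1.38, is Dhh, and the red points are Cdon, Olig2 and Ccnd1.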

How the data were processed

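The deposited files give, per the file headers, a count of uniquely aligned reads for every gene. Beside it stands nRPKM, which per the file headers is an RPKM that the authors scaled with library size factors. The ratio of count to nRPKM changed between libraries by 1 factor for all genes (relative deviation 4e-14), that of median-of-ratios scaling. GSNAP and mouse build NCBIM37 are named in the submitters' processing notes, without a version. The sources used here give neither annotation nor strand handling, so reads that Gli1 shares with Arhgap9, or Boc with Mir3081, cannot be told apart.

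Symbols came from RefSeq for GRCm38.p6, which named 24998 of 28059 identifiers (89.1%). Replicate numbers follow accession order and pair nothing. Counts of all 10 libraries were fitted with edgeR 4.0.16 in R 4.3.3 (TMM, filterByExpr, which set aside 9388 genes and left 18671, quasi-likelihood test of 5 group means, 5 residual degrees of freedom, biological coefficient of variation 0.0821). Benjamini-Hochberg adjustment ran over all 18671 genes, and a call is an adjusted p under 0.05. Errors of fold changes are standard errors from the F statistic, and intervals are 95%. CPM uses TMM-scaled totals.

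The alternatives were DESeq2 1.42.0, limma 3.58.1 on log2(nRPKM + 0.1), median-of-ratios scaling, 2 other filters (no filter, or a CPM of at least 1 in 2 libraries), only the groups compared, Xist or the mean of 11 HOX genes as a covariate, and leaving out libraries. The members and lists were chosen with earlier results of these data known. Named are all members, Shh, Ihh, Dhh, Sufu, Kif7, any listed pathway gene that was called, and the 3 genes nearest in profile to a called member. Disp1, Efcab7 and Hbb-bt were matched to no identifier. Another gene that this rule names is not reported here.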

Additional observations from a re-analysis of the deposited data

How the results depend on the processing

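Of 1710 re-computed fold-change results of single members, over 10 comparisons and 19 alternatives, 1679 kept their side of the threshold and 0 called results changed sign. Cdon lost a call in 26 and gained one in 3, all in TKO over KO, and Gli1 gained one in 2. In KO over control the members called were 0 with limma, without the libraries with high Xist and with Xist or HOX as a covariate, and 0 to 1 when leaving out 1 library. In DKO over KO they were 2 without a low-count filter, 0 with limma, with only the groups compared, without high-Xist libraries and with Xist as a covariate, and 0 to 1 when leaving out 1 library. In DKO over control 1 was called without the filter. In TKO over KO 1 was called with DESeq2, without the filter and with only the groups compared. In QKO over KO 0 were called with limma and with the HOX covariate, and 0 to 1 when leaving out 1 library. For the mean of DKO, TKO and QKO over KO, 0 were called with the HOX covariate and 0 to 1 when leaving out 1 library. For any difference among genotypes, 2 were called without the filter, 0 with limma, without high-Xist libraries and with the HOX covariate, and 0 to 1 when leaving out 1 library. That test was not run on only the groups compared, since it uses all of them. The cause of these changes was not tested. The order of member levels had 0 changes with medians in place of means.

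Calls over all genes depended on the settings: from 23 to 691 in KO over control (137 as reported), 27 to 225 in DKO over control (79 as reported), 13 to 511 in TKO over control (28 as reported), 16 to 122 in QKO over control (44 as reported), 42 to 414 in DKO over KO (106 as reported), 19 to 208 in TKO over KO (62 as reported). They were 75 to 487 in QKO over KO (240 as reported), 7 to 159 in TKO over DKO (17 as reported), 25 to 160 in QKO over TKO (54 as reported), 44 to 358 for the mean of DKO, TKO and QKO over KO (183 as reported), 128 to 862 for any difference (234 as reported). No paired analysis was possible because the labels give no replicate numbers. Gli1, at 163 to 474 counts per library, had the widest standard errors of the members, 0.15 to 0.16 on the log2 scale in the 9 comparisons of 2 genotypes.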
